A study of Mus musculus with 6 samples.

Results

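The 7SL and 7SK RNAs were represented in the deposited counts by 3 of 47729 genes, taken by their symbols in GENCODE M21. These were Rn7s1 (ENSMUSG00000099021) and Rn7s2 (ENSMUSG00000099250), which encode 7SL, the RNA of the signal recognition particle (SRP), and Rn7sk (ENSMUSG00000065037), which encodes 7SK. All 3 had counts in all 6 samples. RNA was sequenced from extracellular vesicles (EVs) that the mouse B lymphoma line WEHI-231 released into vesicle-depleted medium. In each of 3 replicates per condition, 500000 cells in 1 mL were stimulated for 1 h with either a matched isotype antibody or the anti-CD24 antibody M1/69 at 10 µg/mL, in both cases with 5 µg/mL of secondary antibody, and the EVs were captured with the Vn96 peptide. Libraries were made without RNA fragmentation or rRNA depletion. The barcode was the same within a condition, and the libraries that share a replicate number were read on the same run, so condition and barcode cannot be told apart.

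7SL is the scaffold of the SRP, which binds the signal peptide of a nascent secretory or membrane protein and docks the ribosome at the endoplasmic reticulum. 7SK forms a nuclear particle with the proteins LARP7 and MEPCE, and through HEXIM it holds the kinase P-TEFb, which releases paused RNA polymerase II, in an inactive state. Both are abundant RNA polymerase III transcripts of every nucleated cell, 7SL mainly cytoplasmic and 7SK mainly nuclear, and 7SL is often found in EVs and virus particles.

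The genes' positions and sequences in GENCODE M21 set what the counts can and cannot separate. Rn7s1 lies on the plus strand of chromosome 12 of GRCm38 (chr12:69159295-69159594) and Rn7s2 on the minus strand (chr12:69361182-69361481), both with the biotype misc_RNA and a single exon of 300 bases. Their sequences were identical over the 300 bases. Parts of both are covered by a second gene of the same strand.

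The second genes were annotated as miRNA. In Rn7s1 they were Gm47287 (chr12:69159437-69159506), over bases 143 to 212 of the RNA, and Gm47295 (chr12:69159518-69159596), from base 224 to the end. In Rn7s2 they were Gm47305 (chr12:69361270-69361339) and Gm47299 (chr12:69361179-69361258), over the same bases. Together they covered 147 of the 300 bases, or 49.0%. All 4 were in the count files and had 0 counts in all 6 samples. The authors counted in the union mode of htseq-count, in which a read that touches 2 genes on its strand is recorded as ambiguous and goes to neither. Under that rule and with the gene positions of GENCODE M21, a 7SL read would be counted only if it lay within the first 142 bases, or within the 11 bases between the covered stretches. Over the whole annotation, 576 genes lay inside an exon of another gene on the same strand, and 550 of them had 0 counts while 26 had a count, against a count for 9674 of the other 47153 genes. Under that rule and those positions, none of the 576 could have a count. The positions that the authors used may therefore differ for some genes, and whether they differ for Rn7s1 and Rn7s2 was not tested. Between 2743 and 21834 reads per sample were recorded as ambiguous, 62.3 to 143 for each count of Rn7s2. How many of them came from 7SL, and where on the RNA the counted reads lay, cannot be read from the files.

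**Figure D1:**
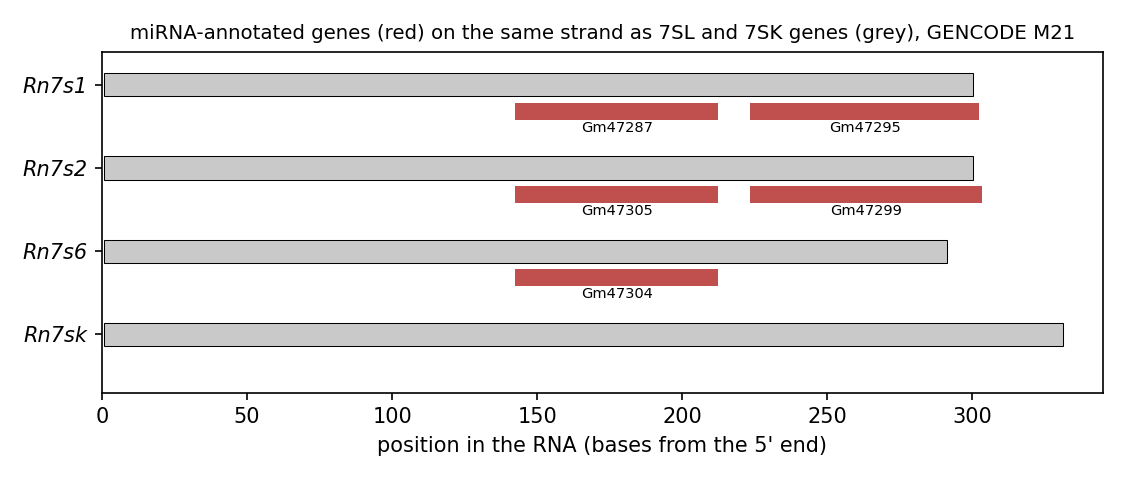
Position of the miRNA-annotated genes (red) that lie on the same strand as the 7SL genes Rn7s1, Rn7s2 and Rn7s6 and the 7SK gene Rn7sk (grey), against position in the RNA in bases from its 5′ end. Bases 143 to 212 and 224 to 300 of Rn7s1 and Rn7s2 are covered by a second gene, and Rn7sk is not covered.

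Rn7sk lies on the minus strand of chromosome 9 (chr9:78175303-78175633), is also a misc_RNA gene of a single exon, and is 331 bases long. No other gene covers it on its strand, so the whole RNA could be counted. Its 5′ hairpin holds the GATC repeats that HEXIM binds, and all 3 matches to GATC (a motif that is its own reverse complement) in the RNA started at bases 13, 42 and 64. They are shown in capitals in the first 100 bases of the RNA. For comparison, 61.9% of the 129282 transcripts with at least 331 bases had a GATC in their first 331 bases, and 7.99% had 3 or more.
Rn7sk: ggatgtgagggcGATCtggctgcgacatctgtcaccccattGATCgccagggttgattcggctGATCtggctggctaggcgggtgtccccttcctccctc

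The depth was low and uneven. Gene counts ran from 166129 to 794185 per sample, and 84.8% to 91.4% of them were on rRNA and ribozyme genes, and 15626 to 112042 counts were left as non-rRNA counts, the main denominator here. A count of 3, taken as the floor, corresponds to 0.00268% to 0.0192% of these. Of 10 B cell marker genes, 8 had a count, 45 in all, with 0 to 10 per isotype sample and 6 to 13 per anti-CD24 sample, while Ptprc had none. The 4 T cell markers had none and the 3 myeloid markers had 8 counts. Of 6 erythroid markers, the 4 haemoglobin genes had 99 counts in anti-CD24 replicate 1 and 0 in every other sample, and Alas2 had none. That sample was also the highest in 7SL, and whether these are related was not tested.

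7SL was a minor part of the EV RNA and was counted in every sample. Rn7s1 had 45, 38 and 204 counts in the isotype samples and 202, 139 and 113 counts in the anti-CD24 samples. Rn7s2 had 47, 39 and 207 counts and 202, 141 and 116 counts in the same order. The copies thus differed by 0 to 3 counts in a sample, and since their sequences are identical the counts are not independent measurements. In every sample, 0 reads were recorded as set aside for lack of a unique alignment, although a 7SL read matches both copies. Whether a read was counted at both copies was not tested at the level of reads. If so, the sum counts it 2 times and the higher copy alone gives the level. With the copies summed, the mean 7SL share was 0.429% ± 0.164 (SD, n = 6) outside rRNA and 0.0436% ± 0.0148 (SD, n = 6) when rRNA was included. At the higher copy alone, it held 0.217% of the non-rRNA counts.

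7SK was scarcer. Rn7sk had 9, 8 and 39 counts in the isotype samples and 16, 22 and 9 counts in the anti-CD24 samples, 103 in all, and its mean share was 0.0326% ± 0.0180 (SD, n = 6) outside rRNA and 0.00324% ± 0.00149 (SD, n = 6) when rRNA was included. In the order of the mean non-rRNA share over the 9589 genes with a count outside rRNA, Rn7s2 stood at rank 46 and Rn7s1 at rank 47, between mt-Nd2 (0.220% ± 0.121), a mitochondrial complex I mRNA, and the Y RNA Rny3 (0.210% ± 0.127). Rn7sk stood at rank 146, between Snora57 (0.0331% ± 0.0270) and mt-Td (0.0317% ± 0.0307), all SD over n = 6. These neighbours did not differ from the 7SL and 7SK genes by more than the spread between samples. In single samples the rank of Rn7s2 ran from 18 to 72 and that of Rn7sk from 80 to 199.

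**Figure D2:**
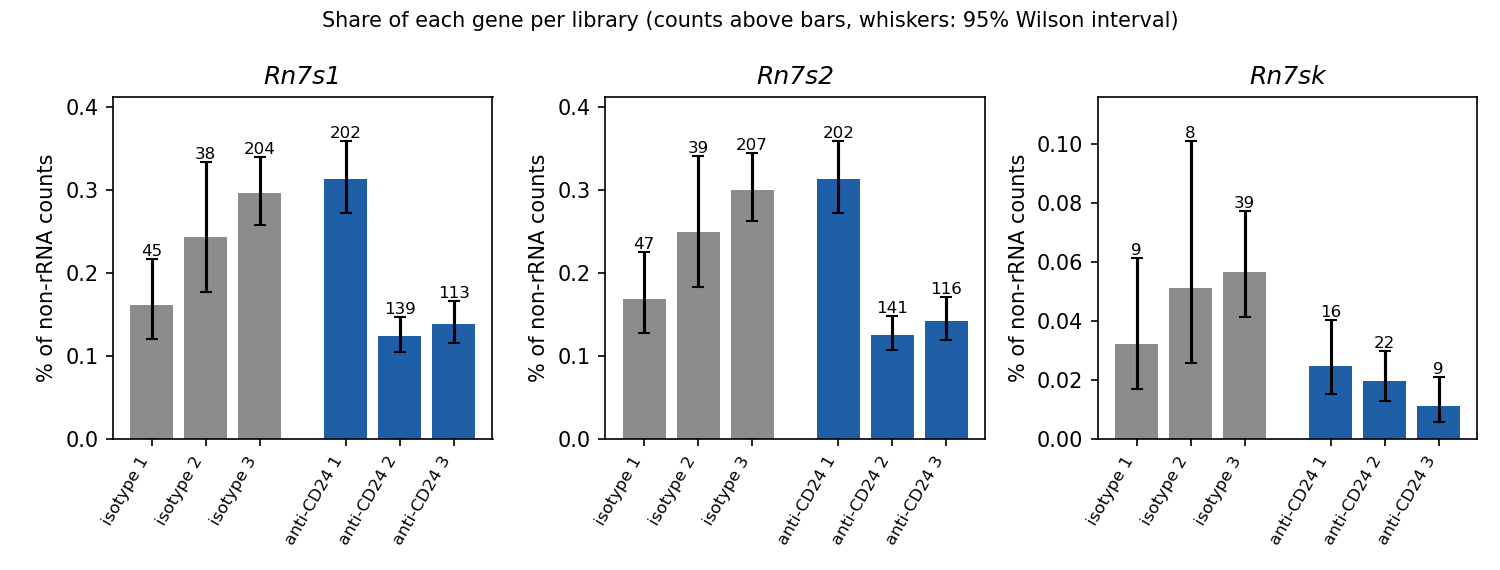
Share of non-rRNA counts in percent (y axis) for Rn7s1, Rn7s2 and Rn7sk in each of the 6 libraries, isotype in grey and anti-CD24 in blue, with 95% Wilson intervals as whiskers and counts above the bars. Rn7s1 and Rn7s2 are nearly equal in every library, and the anti-CD24 bars of Rn7sk are all below the isotype bars.

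Per base of RNA the difference between the RNAs was similar. On the scale of counts per kb of exon and per 1000000 non-rRNA counts, the level of 7SL at its higher copy was 7221 ± 2720 (SD, n = 6) and that of 7SK 985 ± 543 (SD, n = 6). The level of 7SL per kb was above that of 7SK in 6 of 6 samples. The full 300 bases were used for 7SL, although 147 of them are covered by a second gene. Other RNA polymerase III transcripts had levels per kb on the same scale of 20578 ± 12463 for Rny3, 9455 ± 4915 for Rny1, 5955 ± 1825 for Rpph1 (RNase P RNA), 5548 ± 1956 for Rmrp (RNase MRP RNA) and 5299 ± 2393 for Vaultrc5 (vault RNA), all SD over n = 6. Rpph1 and Rmrp are annotated as ribozymes and so are not part of that denominator. 7SK ran from 334 to 1709 in the samples, below the lowest value of these transcripts, 2920 for Vaultrc5, while Rnu6 (U6 snRNA) had 2 counts in all. At its higher copy, 7SL differed from Rny1, Rpph1, Rmrp and Vaultrc5 by less than the spread between samples. With the copies summed its level was 14312 ± 5456 (SD, n = 6), above the means of Rpph1, Rmrp and Vaultrc5 by more than that spread. Both levels of 7SL would be higher with the covered bases left out of its length. Its place among these transcripts thus depends on how the copies are counted and on the length used.

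The comparison of anti-CD24 with isotype asks whether the share of each RNA in the EV counts differed after stimulation of CD24. The counts give shares and not amounts. With bulk EV RNA, fewer vesicles that hold an RNA, less of it per vesicle and more of other RNAs cannot be told apart. 7SL did not differ by more than the spread between samples. The summed 7SL share of the non-rRNA counts was 0.331%, 0.493% and 0.596% in the isotype samples and 0.625%, 0.250% and 0.281% in the anti-CD24 samples. Anti-CD24 replicate 1 was the highest of all and the other anti-CD24 samples were the lowest, so the groups overlapped. The isotype mean was 0.473% ± 0.134 (SD, n = 3) and the anti-CD24 mean 0.385% ± 0.208 (SD, n = 3), which differ by -0.088 percentage points (p = 0.6 in an exact two-sided permutation test, where 3 against 3 cannot go below 0.1). In pairs 1, 2 and 3 of a shared run, the differences were 0.294, -0.243 and -0.315 percentage points (p = 0.75 by exact sign flips, which cannot go below 0.25). As a share of all counts the difference had the other sign, 0.00145 percentage points (exact permutation test, p = 0.9). Without anti-CD24 replicate 1, the difference in the non-rRNA share was -0.208 percentage points (p = 0.2 by exact permutation). Both remaining anti-CD24 samples then lay below the isotype samples, and the share of all genes that do so was not computed. With any other single sample left out, the groups overlapped.

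The share of 7SK was lower after anti-CD24 in each run. It was 0.0324% (95% Wilson interval 0.0170% to 0.0615%), 0.0512% (0.0259% to 0.101%) and 0.0566% (0.0414% to 0.0773%) outside rRNA after isotype. In the anti-CD24 samples it was 0.0248% (0.0152% to 0.0402%), 0.0196% (0.0130% to 0.0297%) and 0.0111% (0.00582% to 0.0210%). All 3 anti-CD24 values thus lay under all 3 isotype values, though the intervals of isotype replicates 1 and 2 overlapped those of anti-CD24 samples, and the intervals cover counting error only. The isotype mean was 0.0467% ± 0.0127 (SD, n = 3) and the anti-CD24 mean 0.0185% ± 0.0069 (SD, n = 3), which differ by -0.0282 percentage points (p = 0.1 by exact permutation, again the lowest the design allows). In pairs 1, 2 and 3 the differences were -0.0076, -0.0316 and -0.0455 percentage points (p = 0.25 by exact sign flips, also the lowest possible). Such a pattern was not rare, since 9.51% of the 1419 non-rRNA genes tested were lower after anti-CD24 without overlap. As a share of all counts, the isotype values of 0.00279%, 0.00482% and 0.00511% overlapped the anti-CD24 values of 0.00262%, 0.00299% and 0.00113% (exact permutation test, p = 0.2), a scale on which 6.53% of 1501 genes were lower after anti-CD24 without overlap. Other RNA polymerase III transcripts were also lower on average, on the scale per kb used above. The isotype and anti-CD24 means were 7125 and 3473 for Vaultrc5, 6964 and 4132 for Rmrp and 7212 and 4698 for Rpph1. They were 21537 and 19618 for Rny3 and 9496 and 9414 for Rny1, against 1411 and 558 for Rn7sk. Only Rnu6, with 2 counts in all, had a higher mean after anti-CD24. Whether these differences are related was not tested.

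**Figure D3:**
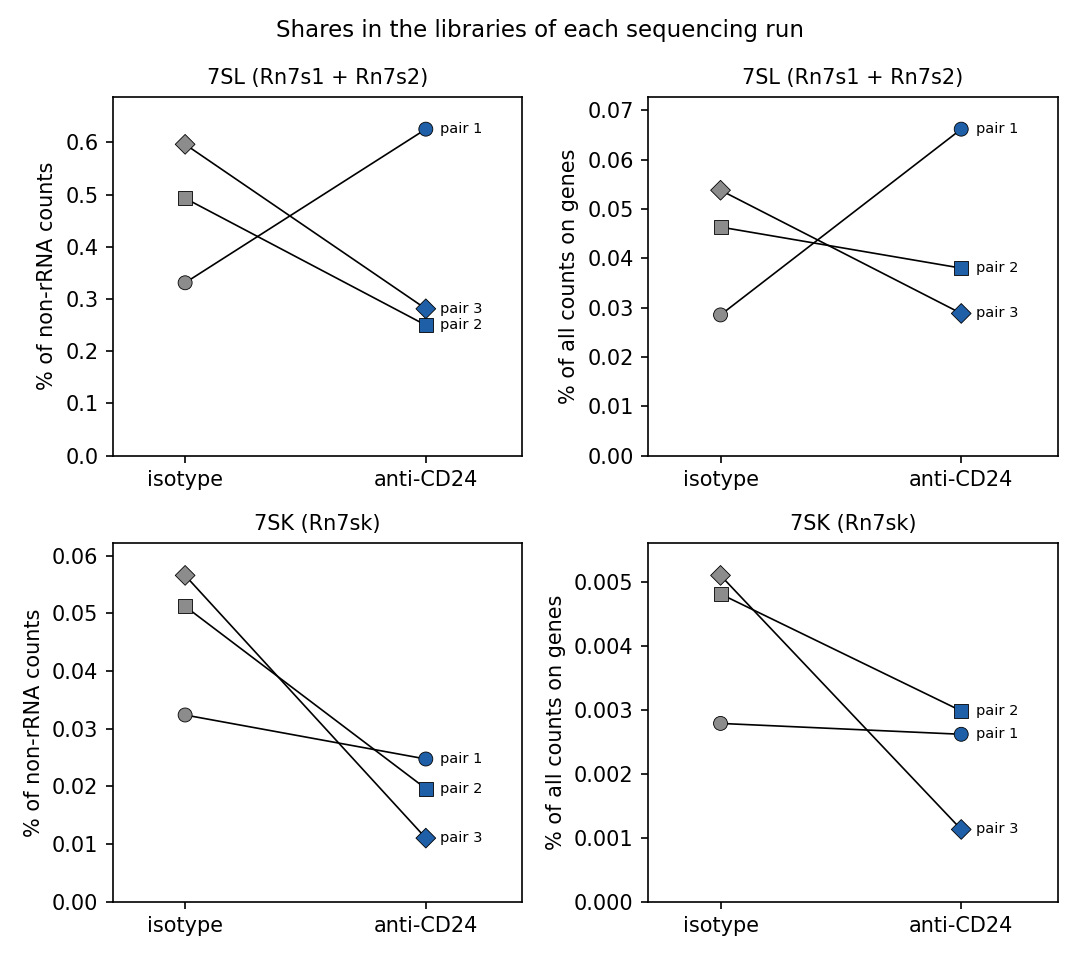
Share of 7SL (top) and 7SK (bottom) in percent of the non-rRNA counts (left) and of all counts on genes (right), with a line for each pair of libraries read on the same run. On both scales 7SL is higher after anti-CD24 in pair 1 and lower in pairs 2 and 3, and 7SK is lower in all 3 pairs, by the least in pair 1.

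The ratio of the RNAs does not depend on a denominator. In the isotype samples there were 10.2, 9.63 and 10.5 counts of 7SL (both copies) for each count of 7SK, and in the anti-CD24 samples 25.3, 12.7 and 25.4. With the higher copy alone, the ratios were 5.22, 4.88 and 5.31 in the isotype samples and 12.6, 6.41 and 12.9 in the anti-CD24 samples. Either way, the isotype samples lay close together and below every anti-CD24 sample. For ratios of other genes, the share that separates the conditions in this way was not computed. The log2 ratio of 7SK to 7SL counts per kb averaged -3.48 ± 0.07 (SD, n = 3) for isotype and -4.47 ± 0.57 (SD, n = 3) for anti-CD24, which differ by -0.99 (p = 0.1 by exact permutation, the lowest the design allows). The differences in pairs 1, 2 and 3 were -1.30, -0.40 and -1.27 (exact sign-flip test, p = 0.25, the smallest possible). Counting error was large beside this. Rn7sk made up 16.1% (95% Wilson interval 8.69% to 27.8%), 17.0% (8.89% to 30.1%) and 15.9% (11.8% to 20.9%) of the counts on Rn7sk and Rn7s2 in the isotype samples. In the anti-CD24 samples it made up 7.34% (4.57% to 11.6%), 13.5% (9.08% to 19.6%) and 7.2% (3.83% to 13.1%), so the intervals of anti-CD24 replicates 2 and 3 overlapped all of the isotype intervals, and that of anti-CD24 replicate 1 overlapped those of isotype replicates 1 and 2. The difference is one between 7SL and 7SK and does not tell which of them moved.

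**Figure D4:**
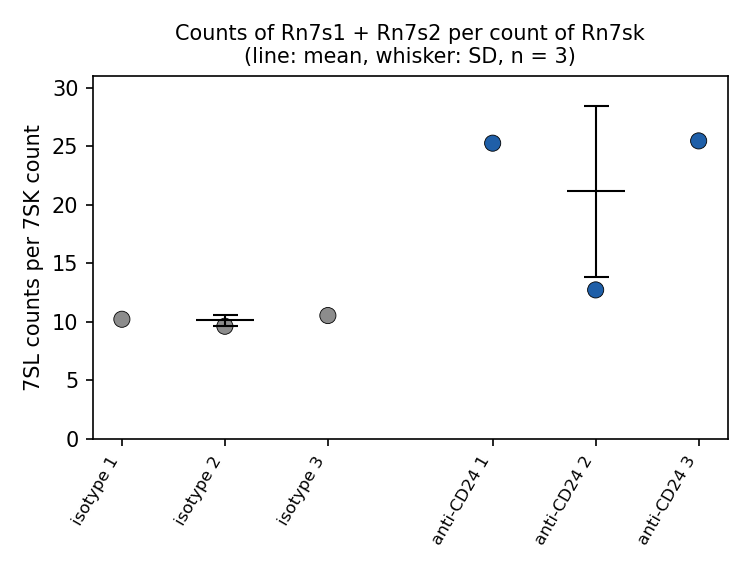
Counts of 7SL (Rn7s1 and Rn7s2 summed) per count of 7SK in each library, with the mean (line) and SD (whisker) of each condition, n = 3. The isotype libraries lie between 9.63 and 10.5, and the anti-CD24 libraries at 12.7, 25.3 and 25.4.

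In the fit across all genes, none of the 3 genes was called. EdgeR's quasi-likelihood test was run on the 1501 genes with at least 1.0 CPM (counts per 1000000 counts) in 3 or more samples, and all 3 passed this filter. A single gene, 0.0666% of those tested, had an adjusted p under 0.05, and 119 had an unadjusted p under 0.05. DESeq2 called 0 genes, with 95 at an unadjusted p under 0.05. The log2 fold change (anti-CD24 over isotype) was 0.24 for Rn7s1 (standard error 0.78, 95% interval -1.29 to 1.77, adjusted p = 0.90) and 0.23 for Rn7s2 (standard error 0.78, 95% interval -1.30 to 1.76, adjusted p = 0.91). For Rn7sk it was -0.83 (standard error 0.99, 95% interval -2.77 to 1.12, adjusted p = 0.74). These intervals are wide, and all 3 hold both a rise and a fall. The median log2 fold change of all genes tested was -0.29, and relative to it Rn7s1 was 0.54 higher, Rn7s2 0.52 higher and Rn7sk 0.54 lower. Fitted with a replicate block, the values were 0.26, 0.24 and -0.74 (adjusted p = 0.99 for each). The sign for 7SL turned with DESeq2, to -0.37 for Rn7s1 and -0.39 for Rn7s2, where the median of all genes was -0.97, while Rn7sk was at -1.47 (adjusted p = 0.75 from DESeq2).

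Related genes also had counts. By sequence (at least 90% identity over at least 100 bases of the same strand), 6 other genes matched 7SL and 11 matched 7SK, and these held 33.9% and 52.5% of the counts of their families. Next to the members in the 7SL family was Gm26461 (chr9:88553236-88553525, misc_RNA), with 32, 29 and 147 counts in the isotype samples and 157, 89 and 78 in the anti-CD24 samples. These were 63.1% to 77.7% of the counts of Rn7s2 in the same sample. Rn7s6 (chr6:69516339-69516629, misc_RNA), which holds the miRNA-annotated Gm47304 over its bases 143 to 212, had 163 counts in all, Gm24514 had 51 and Gm23153 had 11.

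Over the first 142 bases, Gm26461 was identical to Rn7s1 at 140 and Rn7s6 at 139. A read that lies in an identical stretch cannot be assigned to 1 gene, so the counts of these genes are uncertain. Whether the same read was counted at more than 1 of them was not tested. In the 7SK family, Gm24447 (chr15:93234363-93234700) matched the first 241 bases of Rn7sk without a difference and had 6, 5 and 21 counts in the isotype samples and 12, 10 and 6 in the anti-CD24 samples. Gm26315 (chr2:7076094-7076414) had 44 counts in all. With the families counted in full, the ratio of 7SL to 7SK counts was 6.73, 7.41 and 7.41 in the isotype samples. In the anti-CD24 samples it was 16.8, 9.67 and 19.3, without overlap. The families include the members, and the added genes may share reads with them, so this ratio is not a separate measurement. The log2 fold changes of these genes were 0.22 for Gm26461, 0.38 for Rn7s6, -0.75 for Gm24447 and -1.08 for Gm26315 (edgeR, adjusted p of 0.92, 0.85, 0.78 and 0.70), so none was called.

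**Figure D5:**
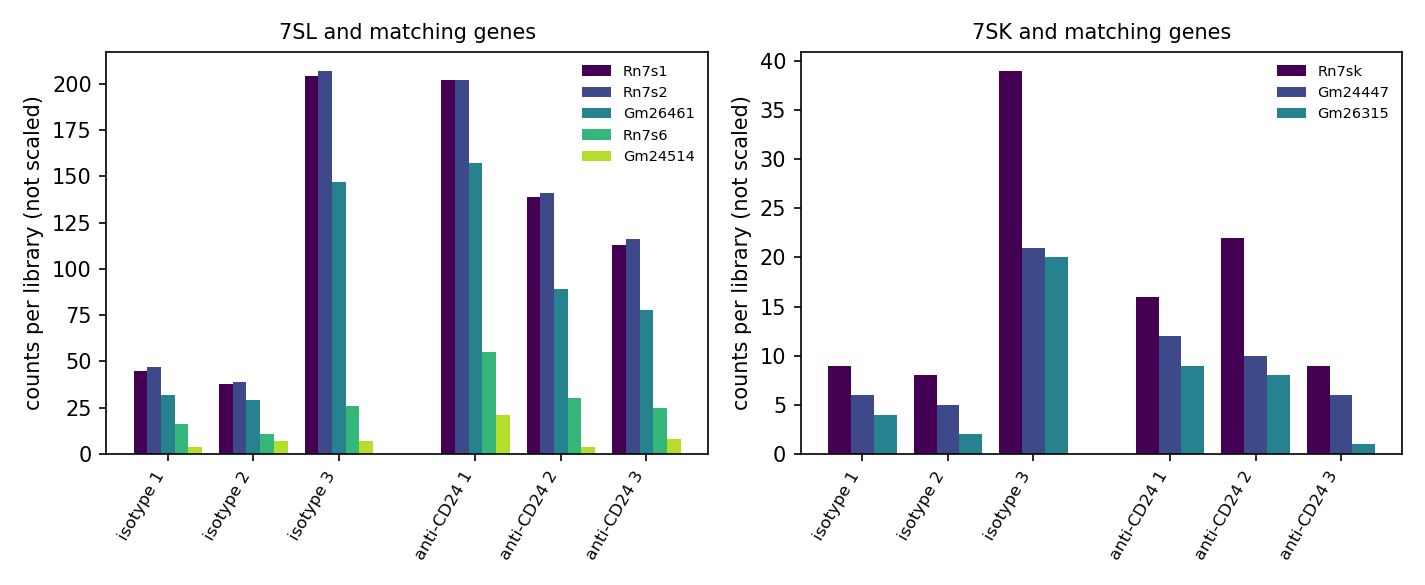
Counts per library, not scaled for depth, of the 7SL genes and of genes that match 7SL (left) and of Rn7sk and of genes that match 7SK (right). Gm26461 follows Rn7s1 and Rn7s2 at 63.1% to 77.7% of the Rn7s2 count, and Gm24447 and Gm26315 lie below Rn7sk in every library.

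The genes whose pattern was most like each RNA were those with the smallest SD, over the 6 samples, of the log2 ratio of their counts to those of the RNA, among 132 other genes with at least 10 counts in every sample. For 7SL they were Gm26461 (SD 0.10), Lars2 (SD 0.20), the gene of the mitochondrial leucyl-tRNA synthetase, and the rRNA gene n-R5-8s1 (SD 0.43), where the median over the 132 genes was 1.04. Gm26461 matches 7SL by sequence and may share reads with it, so its likeness is not a separate observation. Lars2 had 338, 202 and 1071 counts in the isotype samples and 1178, 754 and 737 in the anti-CD24 samples. Its counts were 4280 in all, against 45 for the 10 B cell marker genes, and whether they came from its mRNA was not tested. For 7SK the genes most alike were Rmrp (SD 0.41), Vaultrc5 (SD 0.57) and mt-Rnr2 (SD 0.64), where the median was 1.30. Rmrp had 45, 26 and 164 counts in the isotype samples and 88, 133 and 66 in the anti-CD24 samples. All of these counts are unscaled and so depend in part on the depth of the library, but they did not follow it in full. Anti-CD24 replicate 3 had 794185 gene counts and isotype replicate 3 had 763737, yet Lars2 and Rmrp had fewer counts in the former.

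The mRNAs of the partner proteins were near or below the limit of detection. Of 22 genes listed for the SRP, its receptor and the translocon, 20 were in the files under these symbols, 6 had a count, 13 counts in all, and 0 passed the filter. Those with the most counts were Srp68 with 3, Tram1 with 3, and Srp54c, Sec62 and Sec63 with 2 each. SRP mRNAs were therefore not measurable at this depth, although 7SL itself was counted in every sample. Of 21 genes of the 7SK particle, P-TEFb and pausing factors, 16 had a count, 44 counts in all, with 3 to 7 per isotype sample and 6 to 12 per anti-CD24 sample. Of these 3 were tested, namely Aff4 (12 counts), Aff1 (6 counts) and Supt5 (4 counts), and 0 were called in either direction. Hexim1 had 4 counts, Ell2 4, and Larp7 1, and Cdk9 had none.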

How the data were processed

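After quality trimming (FASTX) and mapping with tmap, the authors counted reads by strand with htseq-count in union mode (HTSeq 0.5.4p5 in the submitters' processing notes) over Ensembl exons, build GRCm38. The deposited values are raw counts, 1 table per sample for 6 samples, with no normalization. Summary lines such as ambiguous reads were kept apart from genes. Symbols, biotypes, positions and sequences came from GENCODE M21, in which 419 of the 47729 genes were not listed. The rRNA and ribozyme biotypes were left out of the non-rRNA counts.

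Samples were grouped by their titles. The members and gene lists were chosen with earlier results of these data known. Shares were compared with exact two-sided permutation tests of 3 against 3, unadjusted, and with sign-flip tests within runs. Genes were tested with edgeR 4.0.16 (R 4.3.3, TMM, quasi-likelihood, condition as the only factor, Benjamini-Hochberg adjustment over all genes tested). Standard errors were derived from the F statistic. The script was first checked on simulated data. Alternatives included DESeq2 1.42.0, other filters, normalizations and denominators, and each sample left out. Sequences were matched with BLAST 2.17.0. Other steps used Python 3.11.15, numpy 2.4.6, pandas 2.3.3 and scipy 1.17.1. The authors call the replicates biological, but the labels do not say that they came from separate cultures. The p-values therefore set differences against the spread between these samples only. PCR reads are not independent molecules, so intervals and floors cover counting error only. Named genes were the members, their sequence matches with at least 10 counts, the 5 most counted genes of each list, the 3 most alike in pattern and the neighbours in rank, with the marker genes and other RNA polymerase III transcripts of the lists. Larp7 and Cdk9, outside this rule, were named after their values were seen. Some marker genes and sequences are not reported here.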

Additional observations from a re-analysis of the deposited data

How the results depend on the processing

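The 7SK share difference was negative under each alternative denominator and ran from -0.0354 to -0.0233 percentage points with single samples left out, but the conditions overlapped with all counts as the denominator and without the 45S-locus, mitochondrial and miRNA genes (-0.0847, exact permutation p = 0.2). Chosen after seeing the data, leaving protein-coding, lincRNA and pseudogene counts out of the denominator gave -0.0596 percentage points without overlap. The log2 ratio difference of 7SK to 7SL was -0.98 with the higher copy, -1.03 with matching genes added, -0.91 with pooled counts and -1.32 to -0.82 with single samples left out, while the replicate block and another length of 7SL, the latter chosen after seeing the data, cannot change it. The 7SL share difference turned to 0.00145 percentage points with all counts as the denominator and to 0.0331 without the 45S-locus, mitochondrial and miRNA genes, and ran from -0.208 to -0.020 with single samples left out. The mean 7SL share moved to 0.0436% with all counts, 0.628% without mitochondrial genes, 0.663% with matching genes added and 0.217% at the higher copy, and was 0.390% to 0.465% with single samples left out. The mean 7SK share moved to 0.00324% with all counts and 0.0704% with matching genes added, and was 0.0278% to 0.0369% with single samples left out. The log2 fold changes of Rn7s1 and Rn7s2 turned to -0.37 and -0.39 with DESeq2, to -0.55 and -0.57 with at least 10 counts required in every sample, and to -0.018 and -0.034 with identical genes kept once, and were 0.62 and 0.61 with rRNA and ribozyme genes removed and 0.45 and 0.43 without a filter, and the cause was not tested. With single samples left out, they ran from -0.23 to 0.31 and from -0.25 to 0.28, negative without isotype replicate 2, and Rn7sk ran from -1.23 to -0.59, and was -0.39 with rRNA and ribozyme genes removed and -1.47 with DESeq2. Rn7sk did not pass the filter of 10 counts in every sample. The number of genes called, 1 with edgeR's quasi-likelihood test, was 0 with DESeq2, 0 with the replicate block, 2 without a filter and 0 with at least 10 counts in every sample, and 0 to 47 with single samples left out, with 47 without anti-CD24 replicate 1, 3 without anti-CD24 replicate 3 and 0 without isotype replicate 1 or anti-CD24 replicate 2. The deviations of same-numbered samples from their group means correlated at -0.106 to -0.024 across the 1501 genes. Pair differences are given because same-numbered samples shared a run, and the replicate block changed no call for the 7SL and 7SK genes, of which 0 were called in either fit. With 8 to 39 counts of Rn7sk per sample, depth limits 7SK.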

Other observations

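Among the 562 genes of the misc_RNA biotype, 27 had a count, and the 7SL and 7SK genes together held 40.5% ± 11.1 (SD, n = 6) of the counts of this biotype, from 27.1% to 53.7% in single samples, the rest being mostly Y RNA, vault RNA and the genes that match 7SL or 7SK.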
